A study of Mus musculus with 2 samples.

Results

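The splicing factor and hnRNP genes described here were chosen by symbol alone: the SR protein genes (Srsf), the small nuclear ribonucleoprotein genes Snrpa to Snrpg and Snrnp, the SF3A and SF3B subunit genes (Sf3a, Sf3b) and the heterogeneous nuclear ribonucleoprotein genes (Hnrnp), with Snrpn left out. They numbered 53 of 18193 genes and 154 of 34945 probe sets that carry a single gene symbol. They were measured in undifferentiated E14 mouse embryonic stem (ES) cells with overexpression of Klf5, a transcription factor with zinc fingers, in 2 clones and 1 Affymetrix array per clone. Both clones carry the overexpression and were kept, per the labels, in ES medium with serum and LIF (leukaemia inhibitory factor). What drives Klf5 (its promoter or vector) is unknown from the labels, and each array stands for 1 clone. The wild-type clones that the study set these against were not analysed here, so nothing below measures an effect of Klf5.

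Pre-mRNA splicing removes introns in the spliceosome, which is built from small nuclear RNAs wrapped in proteins. A ring of Sm proteins forms the core of most of these particles, SF3A and SF3B hold the U2 particle on the branch point, and the U4/U6.U5 tri-snRNP brings the machinery into its active form. SR proteins and hnRNP proteins bind the transcript itself and shift the choice of splice sites, often in opposite directions. Many genes of both families make alternative transcripts of their own, so separate probe sets of one gene can read different isoforms.

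A signal is the deposited log2 value of a probe set, and a difference is clone 2 minus clone 1 on that scale. As background, each array was given the 95th percentile of the signals of 63 genes of adult tissues such as lens, pancreas and muscle (119 probe sets), which came to 6.71 in clone 1 and 6.36 in clone 2. With 1 array per clone no test of a difference is possible. Probe sets of one gene read the same RNA sample of each clone, so they are no replicates. As a rule of size, a difference counted when it reached 2-fold and the higher reading exceeded background, and the SD of the difference over all probe sets of like signal served as the measure of error, which holds technical error and clone differences together. The 15388 probe sets that passed background in either clone were divided by mean signal into 4 bands of like size. That SD was 0.22 in the brightest band, 0.26 in the next, and 0.28 and 0.33 in the dimmer ones. Klf5 itself read 11.61 in clone 1 and 12.25 in clone 2 by its brightest probe set. All 10 ES cell markers examined were above background in both clones. The same held for 2 of 11 fibroblast markers (Thy1 and Pdgfrb), 0 of 6 primitive endoderm markers and 0 of 5 neural markers, while Sox17 and Tubb3 passed in clone 2 alone.

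The upstream regions of the 3 genes whose probe sets above background in both clones stood furthest from equality are printed to show what a Klf-type motif search finds there. They are RefSeq sequences of build GRCm38.p6, 250 bases ending at the base before the annotated start, read 5′ to 3′ along the gene. Srsf10 lies on the plus strand (chr4:135855821-135856070), Hnrnpl on the plus strand (chr7:28810640-28810889) and Hnrnpab on the minus strand (chr11:51606882-51607131). Capitals mark the GC box, GGGCGG or its reverse complement CCGCCC, a motif that Sp and Klf factors can bind.
Srsf10 promoter: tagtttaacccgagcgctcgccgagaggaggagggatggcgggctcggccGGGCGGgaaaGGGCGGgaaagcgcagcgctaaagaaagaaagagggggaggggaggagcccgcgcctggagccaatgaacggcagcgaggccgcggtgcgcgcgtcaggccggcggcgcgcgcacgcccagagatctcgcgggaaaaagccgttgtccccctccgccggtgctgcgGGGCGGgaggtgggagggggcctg
Hnrnpl promoter: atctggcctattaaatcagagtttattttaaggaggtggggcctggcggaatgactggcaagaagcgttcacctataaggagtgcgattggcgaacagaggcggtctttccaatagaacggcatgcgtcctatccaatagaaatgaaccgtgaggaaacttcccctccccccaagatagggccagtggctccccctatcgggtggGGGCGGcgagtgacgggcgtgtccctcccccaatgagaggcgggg
Hnrnpab promoter: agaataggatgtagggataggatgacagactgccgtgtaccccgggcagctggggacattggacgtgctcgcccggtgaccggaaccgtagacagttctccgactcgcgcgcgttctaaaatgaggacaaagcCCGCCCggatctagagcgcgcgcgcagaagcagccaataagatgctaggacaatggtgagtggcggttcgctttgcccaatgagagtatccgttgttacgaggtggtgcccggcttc
The window of Srsf10 holds 3 GC boxes, and those of Hnrnpl and Hnrnpab hold 1 each. The CCAAT box (CCAAT or ATTGG) occurs 1 time in Srsf10, 4 times in Hnrnpl and 3 times in Hnrnpab. The CACCC element (CACCC or GGGTG), not marked by capitals, occurs 0 times in Srsf10, 1 time in Hnrnpl and 0 times in Hnrnpab. The promoter table covers 47 of the 53 genes with 60 windows, of which 43 (71.7%) hold a GC box, beside 32.7% of all 32851 windows and 42.6% of the windows of protein-coding genes. A CCAAT box is in 26 of the 60 windows (43.3%), beside 33.8% of all windows and 35.4% of those of protein-coding genes. The CACCC element is in 24 (40.0%), beside 52.0% of all windows and 54.2% of those of protein-coding genes. These sets of windows were not matched for base composition or signal. Both strands were searched and none of the 3 motifs contains another. A match is a description of the sequence and shows no binding.

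Nearly all of these genes gave signal in both clones, at almost equal levels. With each gene represented by its brightest probe set, 51 of the 53 genes were above background in both clones, against 47.6% of all genes. The exceptions were Srsf12, a relative of Srsf10, at 3.43 and 3.65 in clones 1 and 2, which passed in neither clone, and Snrnp35, a protein of the minor spliceosome, at 6.42 and 6.65, which passed in clone 2 alone through that clone's lower background level. Among the 52 genes that passed in either clone, 34 were higher in clone 2, 17 were lower and 1 was equal. That is a share of 65.4%, against 64% of all 9474 such genes. Their differences ran from -0.19 to 0.64 with a median of 0.08, and the median of all genes was 0.09. Under quantile normalization 57.7% of these genes and 48.5% of all genes were higher in clone 2, with medians of 0.03 and 0. Under median scaling the shares were 75% and 77.9%, with medians of 0.17 and 0.18. The filter itself favours clone 2 among all genes, since 781 passed in clone 2 alone and 32 in clone 1 alone. With no background filter 66.0% of the 53 genes and 49.2% of all 18193 genes were higher in clone 2, with medians of 0.08 and 0. That larger set holds the genes below background in both clones. The SD of the difference was 0.19 over the 52 genes and 0.26 over all genes, which are not matched for signal. By probe set at like signal, it was 0.25 here and 0.22 for all in the brightest band, which holds 100 of the probe sets described here. In the next band it was 0.29 and 0.26. In the dimmer bands it was 0.25 and 0.28, then 0.26 and 0.33. By that probe set 0 of the 52 genes differed 2-fold, where 0.454% of all genes did (0.369% higher and 0.0844% lower in clone 2). At 1.5-fold 1 gene passed, Hnrnpl, higher in clone 2, where 4.48% of all genes passed (3.95% higher and 0.528% lower).

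**Figure D1:**
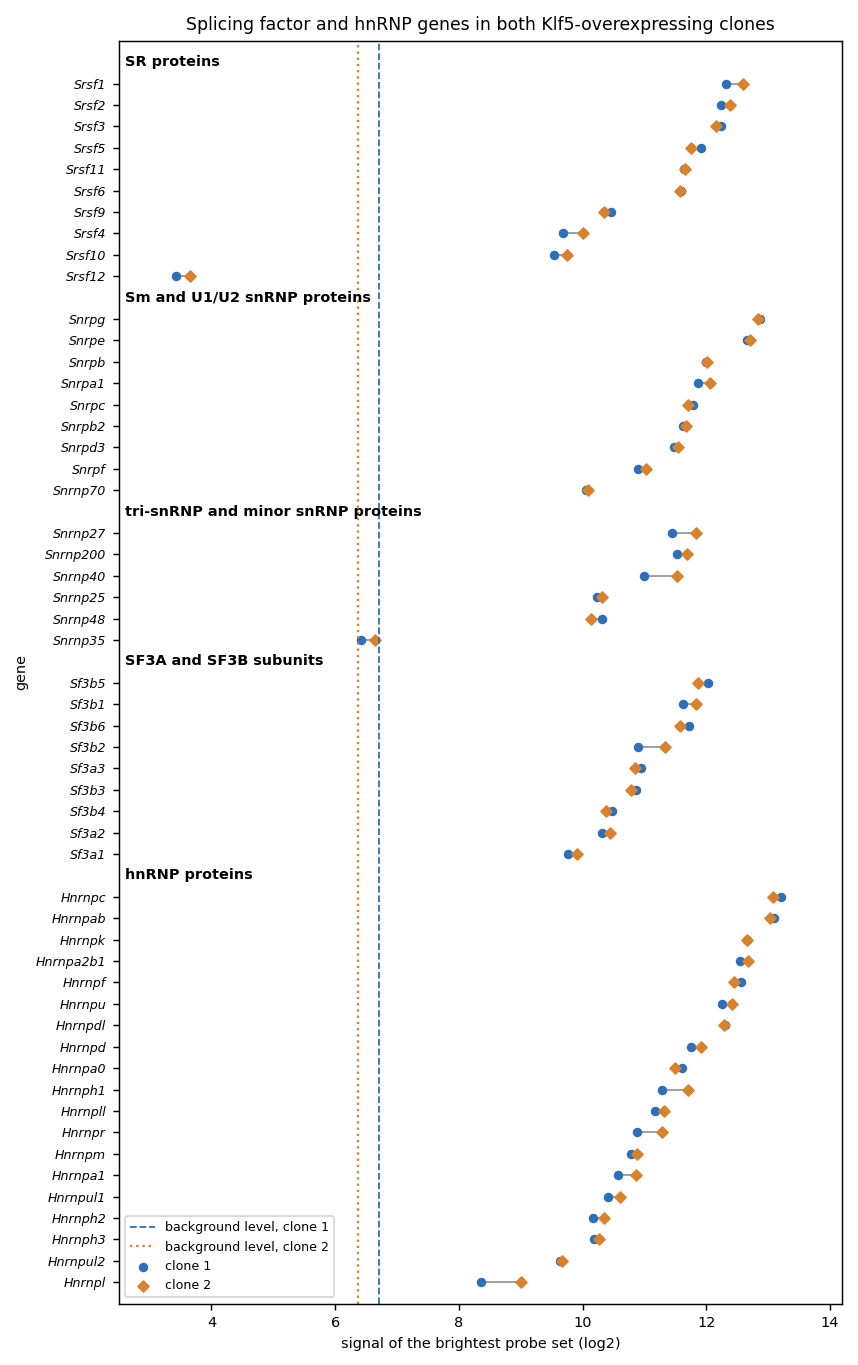
Signal (log2, horizontal axis) of the brightest probe set of each of the 53 genes, grouped by role, in clone 1 (circles) and clone 2 (diamonds), with each clone's background level as a vertical line. The signals of the clones nearly coincide for most genes, Hnrnpl and Snrnp40 show the widest separation, and Srsf12 lies below both levels; the order of genes within a role is for reading and is no ranking of abundance, since probe sets differ in affinity.

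SR proteins bind exonic enhancers through RNA recognition motifs and recruit the spliceosome with their arginine and serine rich tails. Of the 10 SR genes, 9 were above background in both clones, 5 of them higher in clone 2 and 4 lower. Their median difference was 0.02, and it was 0.11 under median scaling, 0 under quantile and -0.02 under loess normalization, so the family has no direction that holds across scalings. Srsf1 (SF2/ASF), the founding member, read 12.32 in clone 1 and 12.60 in clone 2. Srsf4, one of the larger SR proteins, read 9.68 and 10.00. These were the widest differences in that direction by the brightest probe set, 0.28 and 0.32. Srsf5 was the lowest in the other direction at 11.91 and 11.75. Srsf2 (SC35), a marker of nuclear speckles, read 12.23 and 12.38, and Srsf3, the smallest SR protein, 12.24 and 12.15. Srsf6 (11.59 and 11.58), Srsf9 (10.46 and 10.35) and Srsf11 (11.64 and 11.66) stayed within 0.11 of equality. By the brightest probe set, all of these differences lie within 1.5 times the SD of 0.22 for bright probe sets. Other bright probe sets went beyond that in both directions. Srsf1 read 12.13 and 12.60 at 1428099_a_at, and Srsf3 read 10.80 and 10.46 at 1434512_x_at.

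Srsf10 held the single 2-fold difference among the 154 probe sets. Srsf10 encodes an SR protein that represses splicing when it loses its phosphate groups, as in heat shock or mitosis. Its probe set 1423982_at read 9.06 in clone 1 and 10.17 in clone 2, which is 2.16-fold (mean 9.615 ± 0.78, SD, n = 2). The other probe sets of the gene differed less in the same direction. 1418527_a_at, the brightest by mean, read 9.53 and 9.75. Its mean of 9.64 barely exceeds the 9.615 of 1423982_at, so this near tie decides that Srsf10 does not count as 2-fold by its brightest probe set. 1418526_at read 8.61 and 9.03, and 1449121_at read 7.63 and 8.06. All 4 were higher in clone 2, by 0.22 to 1.11, and the direction held under median, quantile and loess scaling. Of all probe sets above background in either clone, 64.1% were higher in clone 2. Over the whole array 0.689% of probe sets above background differed 2-fold, and 1 of the 132 such probe sets of these genes did. At 1.5-fold the count was 3 of 132, in Srsf10, Hnrnpl and Hnrnpab, where 5.51% of all probe sets passed.

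By the brightest probe set, the Sm ring and the U1 and U2 proteins were the most even of the role groups. Their median absolute difference was 0.05, beside 0.17 for all genes, which were not matched to them for signal. Sm proteins encircle the U1, U2, U4 and U5 RNAs. Of the Sm genes, Snrpg read 12.87 in clone 1 and 12.84 in clone 2, Snrpe 12.66 and 12.70, and Snrpb 11.99 and 12.01. Snrpd3 read 11.47 and 11.55, and Snrpf 10.90 and 11.02. None of the 5 differed by more than 0.12 by the brightest probe set. Snrpe and Snrpf have a single probe set each. The second probe sets of the others were lower in clone 2: Snrpg read 11.92 and 11.43, Snrpb 11.85 and 11.49, and Snrpd3 6.90 and 6.58. Among the particle-specific proteins, Snrpa1 (U2 A′) read 11.86 and 12.06, the widest difference of the group, and its partner on the U2 RNA, Snrpb2 (U2 B″), 11.62 and 11.67, with a second probe set at 11.50 and 11.27. Snrpc (U1 C), which supports recognition of the 5′ splice site, read 11.79 and 11.70, and Snrnp70 (U1 70K) 10.05 and 10.09. Of the 9 genes 7 were higher in clone 2 and 2 lower, with a median of 0.04. Under median scaling 8 were higher and 0 lower with a median of 0.13, and under quantile and loess normalization 5 were higher and 4 lower with medians of 0.025 and 0.01. The signs of the smallest differences depend on the scale of the arrays: Snrpg turned from -0.03 to 0.06 under median scaling, and Snrpb from 0.02 to below 0 under quantile (-0.005) and loess (-0.01) normalization.

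The tri-snRNP and minor spliceosome group had the highest median difference of the role groups, 0.19 over 6 genes, of which 5 were higher in clone 2. Snrnp35 (6.42 and 6.65) is among these 5 and passed background in clone 2 alone. The filter thus let it in only through the clone in which it read higher, and it bears on both the count and the median. The group median was 0.28 under median scaling, 0.155 under quantile and 0.14 under loess normalization. Snrnp40, a WD repeat protein of the U5 particle, read 10.99 in clone 1 and 11.53 in clone 2, which is 1.45-fold. The gene's other probe set read 10.71 and 10.56, lower in clone 2, so the gene has no agreed direction. Snrnp27, a small tri-snRNP protein, was higher in clone 2 by both of its probe sets, 11.45 and 11.83 for the brighter and 10.73 and 11.05 for the other. Snrnp200 (Brr2), the helicase that unwinds U4 from U6, read 11.53 and 11.68, and its dimmer probe set (5.31 and 6.29) was not above background in either clone. The minor spliceosome, which removes a small class of introns, was represented by Snrnp25 (10.24 and 10.32) and Snrnp48 (10.32 and 10.13) beside Snrnp35. Snrnp48 was lower in clone 2 by its brightest probe set and higher by the other 3, which differed by 0.12 to 0.19.

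Of the 9 SF3A and SF3B genes, 4 were higher in clone 2 and 5 were lower, with a median of -0.09; it was 0 under median scaling, -0.13 under quantile and -0.15 under loess normalization. Sf3b2, which contacts the transcript upstream of the branch point, read 10.90 in clone 1 and 11.33 in clone 2. All 5 of its probe sets above background in both clones were higher in clone 2, by 0.19 to 0.43. Sf3b1, the large subunit that cradles the branch point, read 11.63 and 11.83 by its brightest probe set, with a mean of 11.73. Its probe set 1418562_at, with a mean of 11.72, was lower in clone 2 (11.92 and 11.52). This near tie decides the direction in which Sf3b1 is counted. Sf3b5 was lower in clone 2 at 12.02 and 11.86, with a second probe set at 11.53 and 11.07. Sf3b6 (p14), which sits at the branch point adenosine, read 11.72 and 11.58. Both Sf3b4 probe sets were also lower in clone 2, at 10.47 and 10.38 and at 8.76 and 8.36. Sf3b3 read 10.87 and 10.78. The SF3A genes were close to even: Sf3a1 read 9.76 and 9.91, Sf3a2 10.31 and 10.45, and Sf3a3 10.94 and 10.84. A second Sf3a1 probe set, at 6.39 and 6.97, passed background in clone 2 alone, the clone in which it read higher. Its clone 2 signal was 1.20-fold above the background level of clone 1, in the signal band with an SD of 0.33.

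All 19 hnRNP genes were above background in both clones, 13 of them higher in clone 2, 5 lower and 1 equal. The median difference was 0.13, and 0.22, 0.105 and 0.10 under median, quantile and loess scaling. Hnrnpl, a regulator that binds CA-rich elements, had the widest difference of the 53 genes by the brightest probe set: 8.36 in clone 1 and 9.0 in clone 2, which is 1.56-fold (mean 8.68 ± 0.45, SD, n = 2). That probe set falls in the signal band with an SD of 0.26, and the gene's other probe set (4.58 and 4.25) was not above background in either clone, so the value rests on 1 probe set. Its paralogue Hnrnpll read 11.17 and 11.32, with a second probe set at 10.04 and 10.42. Hnrnph1, which binds runs of G, read 11.29 and 11.71 by its brightest probe set and 7.13 and 7.22 by the other, and Hnrnpr 10.88 and 11.28. Of the close relatives of Hnrnph1, Hnrnph2 read 10.17 and 10.35, Hnrnph3 10.19 and 10.27, and Hnrnpf 12.56 and 12.45.

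The hnRNP genes with the brightest probe sets were nearly level by those probe sets. Hnrnpc, which coats long unspliced transcripts, read 13.20 in clone 1 and 13.07 in clone 2. Hnrnpk, a KH domain protein, read 12.66 in each clone. Hnrnpu, which also binds chromatin-associated RNA, read 12.26 and 12.41. Hnrnpa2b1, of the A/B class that often favours exon skipping, read 12.55 and 12.68, and Hnrnpa0 11.60 and 11.49. Hnrnpa1 had its brightest single-symbol probe set at 10.57 and 10.87, higher in clone 2, and an _x_at probe set at 10.82 and 10.55, lower in clone 2. The _x_at and _s_at endings mark probe sets that may bind several transcripts, and Hnrnpa1 has many processed copies in the genome, so its readings are uncertain. Hnrnpd (AUF1, 11.75 and 11.91) and Hnrnpdl (12.31 and 12.28), which bind AU-rich elements, Hnrnpm (10.79 and 10.88), Hnrnpul1 (10.41 and 10.60) and Hnrnpul2 (9.64 and 9.66) each differed by less than 0.20 by the brightest probe set. A dimmer probe set of Hnrnpd read 7.69 and 8.09. Over all probe sets above background in both clones, the differences ran from -0.13 to 0.25 in Hnrnpc and from 0 to 0.29 in Hnrnpk. In Hnrnpu they ran from -0.01 to 0.35, and in Hnrnpa2b1 from 0 to 0.13.

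**Figure D2:**
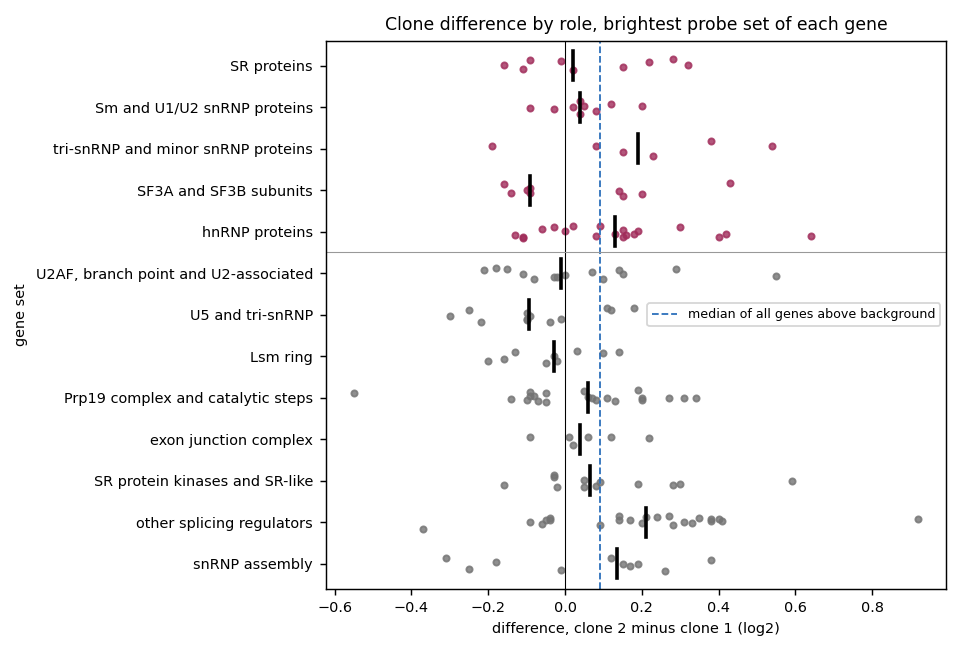
Difference between the clones (log2, clone 2 minus clone 1, horizontal axis) for each gene that passed background in either clone, read by its brightest probe set, in the 5 role groups (red) and in 8 lists of other splicing genes (grey). Each point is a gene, vertical position within a row carries no value, bars are medians and the dashed line is the median of all genes above background, 0.09; the role medians run from -0.09 (SF3A and SF3B) to 0.19 (tri-snRNP and minor snRNP).

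The probe sets of one gene often disagreed in sign, here as over the whole array. Of the 154 probe sets, 128 were above background in both clones, against 39.1% of all single-symbol probe sets, 4 in clone 2 alone and 22 in neither. In 35 genes at least 2 probe sets passed in both clones, and in 20 of these genes (57.1%) the differences lay on both sides of 0, against 47.3% of all 3302 genes of that kind. A gap of at least 0.5 between the differences of a gene's probe sets occurred in 10 of the 35 genes, against 19.4%, and a gap of at least 1 in 1 gene, against 2.03%. The median gap was 0.31 here and 0.27 over all such genes. These genes have more such probe sets each, 3.2 on average beside 2.51. Among genes with 2 such probe sets, 7 of 17 here had differences on both sides of 0 (41.2%), against 38.5% of all. In these the median gap was 0.28 here and 0.21 for all. With 3 probe sets it was 0.42 for 4 genes here and 0.33 for all, with 4 it was 0.335 for 8 genes and 0.43, and with 5 or more 0.555 for 6 genes and 0.48. The shares on both sides of 0 in these strata were 75% against 59.1%, 62.5% against 71.1% and 83.3% against 78.9%.

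Hnrnpab had the widest gap, 1.44. Hnrnpab encodes an hnRNP of the A/B type made in several isoforms. Its probe set 1426114_at gave signals of 13.07 and 12.11 in clones 1 and 2, so that clone 2 minus clone 1 was -0.96 (mean 12.59 ± 0.68, SD, n = 2). In contrast, 1455855_x_at read 13.09 and 13.03, 1415914_at 12.81 and 12.72, and 1453849_s_at 12.55 and 12.52. These 3 bright probe sets were level to within 0.09. A dimmer one, 1448144_at, was higher in clone 2 (9.31 and 9.79). Another, 1431349_at, passed in clone 2 alone (6.70 and 7.20), the clone in which it read higher. Its clone 2 signal was 1.41-fold above the background level of clone 1, in the signal band with an SD of 0.33. 1459880_at (5.39 and 5.64) was not above background in either clone. The difference at 1426114_at was -0.87 under median scaling and -0.99 under quantile normalization, while the brightest probe set turned from -0.06 to 0.03 under median scaling. Where each probe set lies on the transcript was not examined, since no probe positions were used here.

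**Figure D3:**
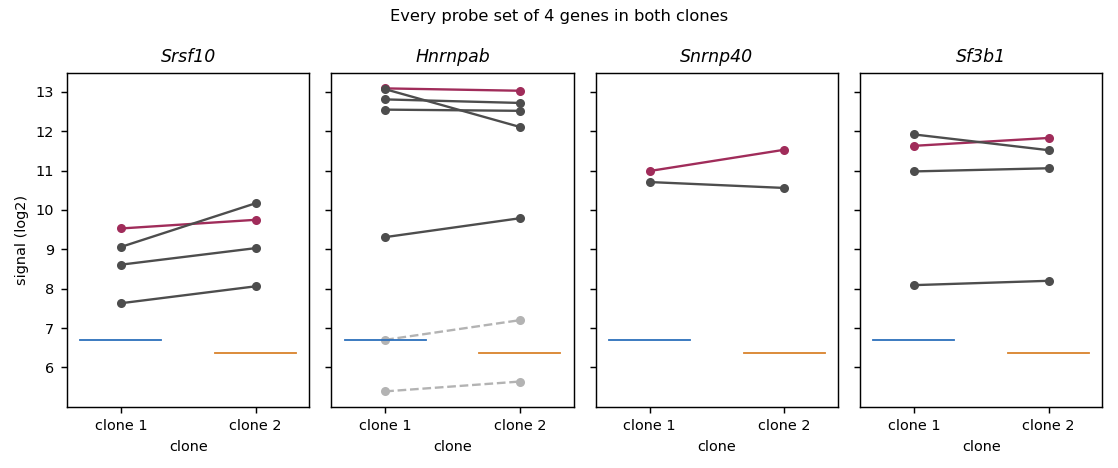
Signal (log2, vertical axis) of every probe set of Srsf10, Hnrnpab, Snrnp40 and Sf3b1 in clone 1 and clone 2, with lines joining the readings of 1 probe set. Red marks the brightest probe set by mean, dashed pale lines mark probe sets not above background in both clones, and short horizontal bars are the background levels of 6.71 and 6.36; 1 probe set each of Srsf10 (9.06 to 10.17) and Hnrnpab (13.07 to 12.11) departs from the others of its gene.

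Srsf10 had the next widest gap, 0.89, with all its probe sets on one side of 0. The 6 genes that followed had probe sets on both sides of 0. Snrnp40 and Srsf3 each had a gap of 0.69. For Srsf3, 3 of the 6 probe sets were higher in clone 2 and 3 lower, from 10.80 and 10.46 at 1434512_x_at to 9.33 and 9.68 at 1416151_at. Hnrnpdl, read by 7 probe sets, had differences from -0.10 to 0.51, with the highest at its dimmest probe set (7.57 and 8.08). Sf3b1 had 1 probe set lower in clone 2, 1418562_at at 11.92 and 11.52, and 3 higher. Srsf2 had differences from -0.31 to 0.28 over 4 probe sets, and Hnrnpr from -0.18 to 0.40 over 3. Other genes were more even. The 4 probe sets of Hnrnpa2b1 spanned 0.13, the 4 of Srsf6 0.23, and both of Hnrnpul2 lay within 0.02 of 0. For Srsf1, 5 of 6 probe sets were higher in clone 2 and 1 was lower by 0.03 on the log2 scale.

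**Figure D4:**
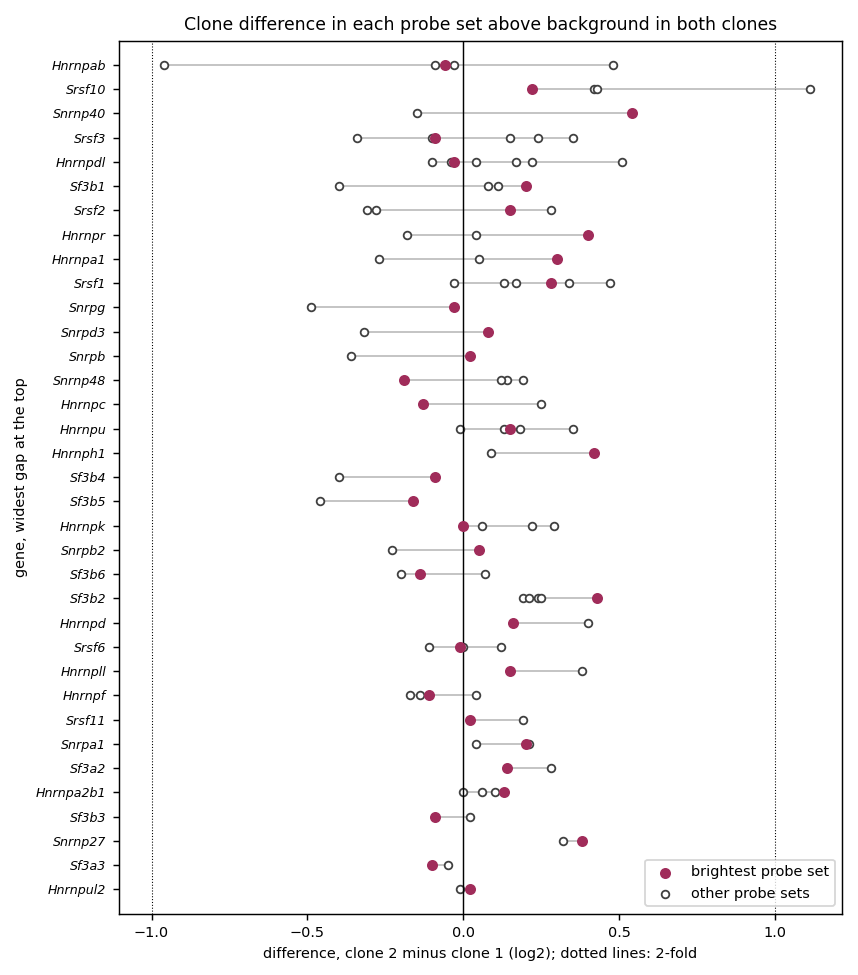
Difference between the clones (log2, clone 2 minus clone 1, horizontal axis) of each probe set above background in both clones, for the 35 genes with at least 2 of them, with the widest gap at the top. Red points are the brightest probe set of a gene, open points the others, and dotted lines mark 2-fold; 1 Srsf10 probe set lies beyond 2-fold at 1.11 and 1 Hnrnpab probe set reaches -0.96.

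Dim probe sets did not lean to one clone relative to the brightest one of the same gene. The dimmest probe set had the larger signed difference in 17 of the 35 genes, against 46.5% of all such genes. By type, 46 of 63 probe sets with no letter before the ending _at were higher in clone 2 (73.0%, against 66.1% of all), with a median of 0.14 against 0.11. Among _a_at probe sets, which read several transcripts of one gene, 17 of 31 were higher (54.8%, against 59.4%). Of the 100 probe sets in the brightest signal band 60 were higher in clone 2, against 57.9% of all in that band. In the next band 9 of 13 were higher (69.2%, against 65.0%). In the dimmer bands the counts were 8 of 10 (80%, against 68.6%) and 8 of 9 (88.9%, against 64.9%). The dimmest band includes the 4 probe sets that passed in clone 2 alone.

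A companion list of 126 other splicing genes, of which 115 were measured, also differed little between the clones. Of these, 107 were above background in both clones (93.0%, against 47.6% of all genes). In clone 2, 60 of the 107 were higher (56.1%, against 64% of all genes above background), with a median of 0.06 beside 0.09. The median of the list was 0.15 under median scaling and -0.01 under quantile and loess normalization. 0 of the 107 differed 2-fold, where 0.454% of all genes did, and 2 passed 1.5-fold, both higher in clone 2, where 3.95% of all genes were. Tia1, which aids recognition of weak 5′ splice sites, read 8.57 in clone 1 and 9.49 in clone 2. Its other probe sets above background gave 7.60 and 8.11, and 7.77 and 7.81. Clk2, a kinase of SR proteins, read 8.88 and 9.47 by its single probe set. Cherp (8.92 and 9.47) and Ptbp2, the neural paralogue of Ptbp1 (7.84 and 8.25), followed in that direction. The other Cherp probe set above background, of similar signal, read 8.98 and 9.11.

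In the other direction stood Dhx38 (Prp16), a helicase of the catalytic steps, at 8.96 and 8.41, and Rbfox2, a regulator that binds GCATG, at 8.45 and 8.08. The second probe set of Dhx38 went the other way (7.72 and 7.83). Snupn, which imports assembled snRNPs, read 9.09 and 8.78, with 8.45 and 8.14 by another probe set, and Prpf38a read 10.66 and 10.36. For the single lists, the share higher in clone 2 stands beside 64% of all genes above background. The U5 and tri-snRNP proteins outside the symbol rule had 3 of 12 genes higher (25%) and a median of -0.095. That median was -0.005 under median scaling and -0.18 under quantile and loess normalization. The Lsm list, which holds Lsm1, Lsm10 and Lsm11 beside genes of the ring on U6, had 3 of 9 higher (33.3%) and a median of -0.03. That median turned to 0.06 under median scaling and was -0.10 under quantile and -0.12 under loess normalization. Among other splicing regulators 17 of 23 were higher (73.9%), with a median of 0.21 that was 0.30, 0.175 and 0.15 under median, quantile and loess scaling. The remaining lists had medians from -0.01 to 0.135.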

How the data were processed

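Total RNA of 2 Klf5-overexpressing ES cell clones was hybridised to 1 array each. For every probe set the authors deposited a log2 signal, made with Transcriptome Analysis Console (submitters' processing notes). How the arrays were corrected, summarised and normalized is not given in the sources used, and base 2 rests on the span of the values, 2.21 to 14.38. The column medians were 5.27 and 5.18. Values were used as deposited; the number of arrays limits the precision. Of 45037 probe sets 34945 had 1 symbol in the platform annotation, 932 several and 9160 are unnamed here. Entrez identifiers of all 154 probe sets described here matched the RefSeq table of GRCm38.p6, and 0 symbols changed. The probe set with the highest mean stood for a gene. The names printed were the up to 4 largest differences and 3 brightest genes of each role, the genes not above background in both clones, those with a 2-fold probe set, the 8 widest gaps and 4 companion genes per direction; values of all other genes were added after they were seen. Members and lists were chosen with earlier results of these data known. The counting was tested on simulated differences. Alternatives were median, quantile and loess normalization (limma 3.58.1, R 4.3.3, span 0.7), other background levels and other rules for probe sets. Analyses ran in Python 3.11.15 with pandas 2.3.3.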

Additional observations from a re-analysis of the deposited data

How the results depend on the processing

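With median, quantile or loess normalization, 4 other background settings and 3 other rules for probe sets, the median difference of the genes ran from 0.03 to 0.17 and no gene differed 2-fold by its representative probe set. Background at the 90th percentile or from sensory receptors put 52 genes above it in both clones, and the mean over probe sets 48. Clone 2 alone gave 52 genes above background and clone 1 alone 51. Genes with 1 probe set alone left 11 of 13 above background and 9 of 12 higher in clone 2. Without _x_at and _s_at probe sets 13 of 24 genes had differences on both sides of 0, since fewer probe sets remained. A 1.5-fold rule called 1 gene, Hnrnpl, and any probe set of the gene in place of the brightest called 1, Srsf10 (the latter and a background without Mbp and Mylpf, at 6.67 and 6.35, were chosen after seeing the data). No paired analysis was possible because both samples form 1 group. Precision is limited by 1 array per clone.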

Other observations

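Probe sets whose annotation lists several symbols were left out of all counts, and some of them read genes of these families together with their processed copies. All 4 probe sets of Hnrnpa3 were above background in both clones, with differences from -0.08 to 0.24, and those of Snrpa, Snrpd1 and Snrpd2 differed by 0.02, -0.10 and 0.04. The 3 such probe sets of Hnrnpa1 differed by -0.08 to -0.02, less than either of its brightest single-symbol probe sets (0.30 and -0.27).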
